A study of Mus musculus with 9 samples.

Results

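The metallothioneins Mt1, Mt2 and Mt3 were examined on 9 whole-retina arrays, together with Mtf1, which encodes the zinc-sensing transcription factor MTF-1, and Slc30a1, which encodes the zinc exporter ZnT1. These 5 genes, of 19405 named on the array, were chosen by symbol, and 8 of 46613 probes carried a member's symbol. Mt1, Mt2 and Mt3 had 1 probe each, Mtf1 had 3 and Slc30a1 had 2. A probe was tested where at least 1 group had a detection p-value under 0.05 on each of its 3 arrays, which held for 7 of the 8 member probes and for 19620 probes in all. All samples were retinas of C57BL/6N mice from a study of oxygen-induced retinopathy, in which high oxygen prunes the growing retinal vessels of pups and a return to room air leaves the tissue short of oxygen. The hypoxic P12.5 group had been in 75 ± 2% oxygen from postnatal day 7 for 5 days and then in room air for 12 hours. The hyperoxic P12 group had the same oxygen exposure and was sampled on leaving the chamber, and the control P12 group consisted of normal mice of postnatal day 12. There were 3 arrays per group, each hybridized with RNA of the pooled 2 retinas of 1 mouse, so the replicates were separate animals. No normal mice of P12.5 were analysed here, so 12 hours of age and time of day cannot be told apart from the return to room air.

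Hyperoxic 1 stood apart from the other 8 arrays, with a median raw intensity of 163.6, against 67.4 to 82.3, and a share of detected probes of 30.6%, against 42.1% to 44.5%. The tissue label fitted its markers, since all 4 rod genes with a probe were detected on all 9 arrays. The labels within P12 are in doubt. The detection p-values beside 5 of the 9 intensity columns (control 2 and 3 and all hyperoxic arrays) followed another array. The deposited ratios had a median of 1 over control 1, hyperoxic 2 and hyperoxic 3, as if these 3 arrays had been the baseline. Both gave the same regrouping. The p-values beside the 3 controls followed the arrays of that baseline, and those beside the hyperoxic arrays followed control 2, control 3 and hyperoxic 1. Each gene is therefore described first in hypoxic P12.5 against all 6 P12 arrays and then by the labels. The differences in the first comparison do not depend on the P12 labels. The choice of tested probes does, and with it the adjusted p-values. Control 1, control 3 and hypoxic 2 had a female expression pattern.

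Metallothioneins are small cysteine-rich proteins that bind zinc and copper, buffer free zinc and react with oxidants. Mt1 and Mt2 are made in most tissues and are induced by zinc, glucocorticoids, cytokines, oxidative stress and low oxygen, whereas Mt3, also called growth inhibitory factor, is made mainly in the nervous system and responds little to metals. When zinc rises, MTF-1 binds metal response elements, short promoter motifs with the core TGCACNC or TGCGCNC, and switches on Mt1, Mt2 and Slc30a1, whose product moves zinc out of the cytosol.

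The metallothionein genes lie side by side on mouse chromosome 8. In the GRCm38.p6 annotation Mt4 spans chr8:94137204-94139031, Mt3 chr8:94152607-94154148, Mt2 chr8:94172618-94173567 and Mt1 chr8:94178883-94180327, a stretch of 43.1 kb for the 4 genes, with 5.32 kb between the end of Mt2 and the start of Mt1. Mtf1 is at chr4:124802549-124849800 and Slc30a1 at chr1:191906697-191913248. The RefSeq promoter windows of the 3 metallothioneins are printed because Mt1 and Mt2 moved together and Mt3 did not move with them. Each holds 300 bases, 250 before and 50 after the transcript start that the RefSeq table used, on the plus strand of GRCm38.p6, at chr8:94178839-94179138, chr8:94172368-94172667 and chr8:94152357-94152656. The start used was the first base of the gene as given above for Mt2 and Mt3, but lay 206 bases inside the annotated Mt1 gene and may not be its main start. Capitals mark every match to the metal response element core TGCACNC or TGCGCNC on either strand.
Mt1: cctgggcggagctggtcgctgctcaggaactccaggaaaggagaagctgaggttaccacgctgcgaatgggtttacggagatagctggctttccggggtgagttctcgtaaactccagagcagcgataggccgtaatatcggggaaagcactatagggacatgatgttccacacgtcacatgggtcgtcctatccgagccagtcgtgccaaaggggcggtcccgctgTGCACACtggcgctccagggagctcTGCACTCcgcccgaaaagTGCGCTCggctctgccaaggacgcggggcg
Mt2: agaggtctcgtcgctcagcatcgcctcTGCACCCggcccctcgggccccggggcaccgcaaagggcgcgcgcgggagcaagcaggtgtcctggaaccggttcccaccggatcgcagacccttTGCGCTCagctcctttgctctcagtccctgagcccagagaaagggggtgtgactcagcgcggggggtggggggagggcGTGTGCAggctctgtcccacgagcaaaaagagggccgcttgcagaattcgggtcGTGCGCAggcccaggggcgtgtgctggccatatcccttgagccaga
Mt3: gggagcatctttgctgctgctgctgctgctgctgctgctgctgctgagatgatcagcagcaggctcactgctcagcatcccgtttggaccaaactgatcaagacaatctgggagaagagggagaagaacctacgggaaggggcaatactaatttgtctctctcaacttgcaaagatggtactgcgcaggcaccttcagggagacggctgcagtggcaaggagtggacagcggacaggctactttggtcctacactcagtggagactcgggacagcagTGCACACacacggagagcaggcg
The Mt1 window held 3 matches, all on the plus strand, beginning 23 bases before and 3 and 21 bases after the start used for the window, so that all 3 lie inside the Mt1 gene as annotated. The Mt2 window held 4, of which the 2 on the plus strand began 223 and 128 bases before the start and the 2 on the minus strand 50 bases before and 5 bases after it. The Mt3 window held 1, which began 28 bases after the start. The windows of all 5 members were found in the table. The Slc30a1 window (chr1:191906531-191906830) used a start 84 bases inside the annotated gene, which may not be the main one, and held 2 matches, both on the minus strand and inside the gene. The Mtf1 window (chr4:124802299-124802598), set at the first base of its gene, held none. Of all 32851 mouse promoter windows of this length, 25.7% held at least 1 match, 7.11% at least 2, 1.97% at least 3 and 0.517% at least 4. A match describes the letters of the window and not a site in use.

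Mt1 was about 3-fold higher in the hypoxic retinas than at P12. Its normalized log2 intensity was 12.79, 12.75 and 12.63 on hypoxic arrays 1 to 3, against 11.50, 10.92 and 11.14 on the hyperoxic arrays and 10.94, 11.22 and 11.24 on the controls. All 3 hypoxic arrays lay above all 6 P12 arrays, as did 6.91% of all tested probes. For Mt1 the nearest pair was 1.12 log2 units apart. The raw intensities of the hypoxic arrays did not overlap those of P12 either, at 7370 to 8298 on the hypoxic arrays, 2144 to 3094 on the hyperoxic arrays and 1677 to 2228 on the controls. Against all 6 P12 arrays the rise was 1.57 ± 0.13 on the log2 scale (difference ± SE, limma adjusted p = 0.000238), a fold change of 2.96 (95% interval 2.41 to 3.63).

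In that comparison 3.24% of all tested probes were called at an adjusted p under 0.05 in either direction, 1.79% as higher and 1.45% as lower, and 2 of the 7 tested member probes were called, those of Mt1 and Mt2, both as higher. The split of all calls depended on scaling, with 351 higher and 285 lower as reported, 349 and 6 under median centring, and 33 and 0 under the deposited ratios. Mt1 ranked 12th by p-value among the 19620 probes, and its difference was the 25th largest in the upward direction. By the labels, Mt1 was 1.54 ± 0.16 above hyperoxic P12 (fold 2.90, limma adjusted p = 0.00242) and 1.59 ± 0.16 above control P12 (fold 3.02, limma adjusted p = 0.00296). These comparisons share the hypoxic arrays. The call held in all 3 under every alternative that was run, with differences between 1.40 and 1.93.

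**Figure D1:**
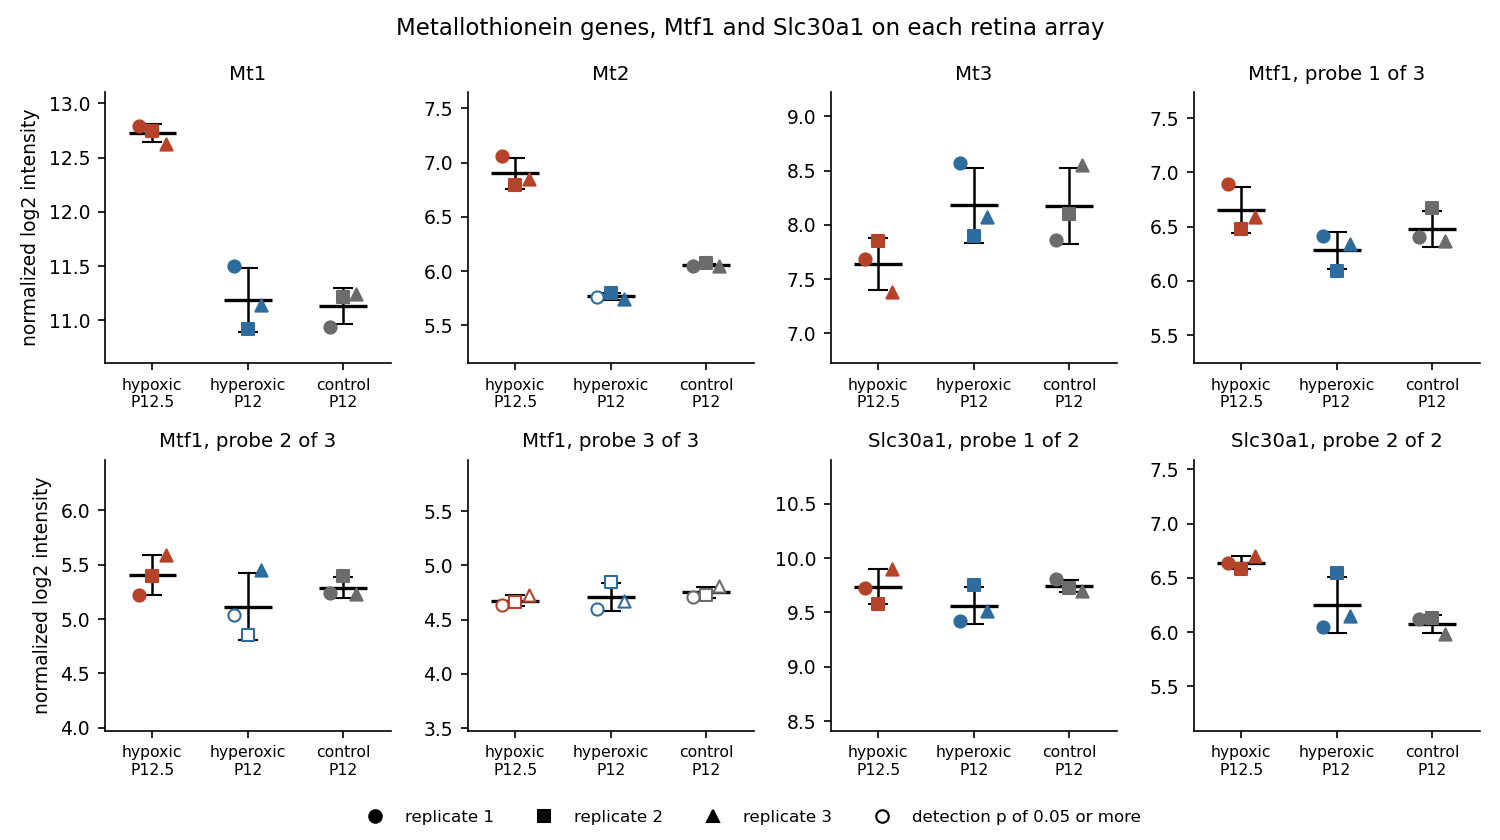
Normalized log2 intensity (vertical axis, 1 scale length in all panels but a different position) of the 8 member probes on each array, with hypoxic P12.5, hyperoxic P12 and control P12 from left to right; bars give the mean ± SD of 3 arrays and open symbols a detection p-value of 0.05 or more. The Mt1 and Mt2 panels show the 3 hypoxic arrays above all P12 arrays, and in the Mt3 panel they lie just below them.

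Mt2, the other widely expressed metallothionein, was 1.98-fold higher in the hypoxic retinas than at P12 (95% interval 1.65 to 2.38), a log2 difference of 0.99 ± 0.12 (limma adjusted p = 0.00211). Its normalized log2 intensity was 7.06, 6.79 and 6.85 on the hypoxic arrays, against 5.76, 5.80 and 5.74 on the hyperoxic arrays and 6.05, 6.07 and 6.05 on the controls. Every hypoxic array exceeded every P12 array, by at least 0.72, in a comparison where 6.91% of all tested probes lay wholly higher. The Mt2 probe is dim: raw intensities were 174.5 to 203.6 on the hypoxic arrays and 102.1 to 105.2 on the controls, and it was not detected on hyperoxic 1, where the raw value of 191.8 stood beside the high median of that array. The offset added in normalization makes fold changes of dim probes smaller than they are, so the folds of Mt1 and Mt2 are not compared with each other. Without background correction the Mt2 difference from all P12 was 0.59 ± 0.07, below the interval of the reported fold, and passed (limma adjusted p = 0.002). In that setting it was 0.67 against hyperoxic P12 and 0.52 against control P12.

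By the labels, Mt2 was 1.13 ± 0.10 above hyperoxic P12 (fold 2.19, limma adjusted p = 0.00141) and 0.84 ± 0.10 above control P12 (fold 1.79, limma adjusted p = 0.0108). Against hyperoxic P12, 1.70% of all tested probes were called, 1.13% as higher and 0.566% as lower, and against control P12 1.89%, 1.29% as higher and 0.601% as lower. In each of them 2 of the 7 member probes were called, Mt1 and Mt2, both as higher. The Mt2 call against the control ended in 7 of 18 alternatives. Among them were the fits without control 1 (limma adjusted p = 0.0659), control 2 (adjusted p = 0.05) or hypoxic 1 (adjusted p = 0.0734) and those with median centring, a term for sex or the deposited ratios. With the deposited ratios the calls against hyperoxic P12 and against all P12 also ended (0.81, adjusted p = 0.0678, and 0.72, adjusted p = 0.0544). The Mt2 difference was positive in each of these settings.

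Mt3, the brain-enriched metallothionein, did not share the rise. Its normalized log2 intensity was 7.69, 7.85 and 7.38 on the hypoxic arrays, against 8.57, 7.90 and 8.07 on the hyperoxic arrays and 7.86, 8.10 and 8.55 on the controls. The 3 hypoxic arrays lay below all 6 P12 arrays, but by only 0.02 at the nearest pair, while the P12 arrays spread over 0.71. The raw intensities overlapped, at 248.4 to 301 on the hypoxic arrays and 243.7 to 486.5 at P12. The deposited ratios overlapped too, at 0.737 to 0.878 and 0.714 to 1.327. By normalized intensity, 7.06% of all tested probes had their hypoxic arrays below every P12 array. The share was 10.2% below every hyperoxic array and 20.2% below every control array. The difference from all P12 was -0.54 ± 0.18 (95% interval -0.94 to -0.14) and did not pass the test (limma adjusted p = 0.127), nor did those from hyperoxic P12 (-0.54 ± 0.22, adjusted p = 0.23) and control P12 (-0.53 ± 0.22, adjusted p = 0.22). The size depended on scaling: median centring gave -0.24 against all P12 and the deposited ratios gave -0.23, settings that placed the median of all probes at 0.24 and 0.13 instead of 0.02. With array weights it was -0.50 and passed (limma adjusted p = 0.0304), in a setting that called 4001 probes against 636 as reported.

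**Figure D2:**
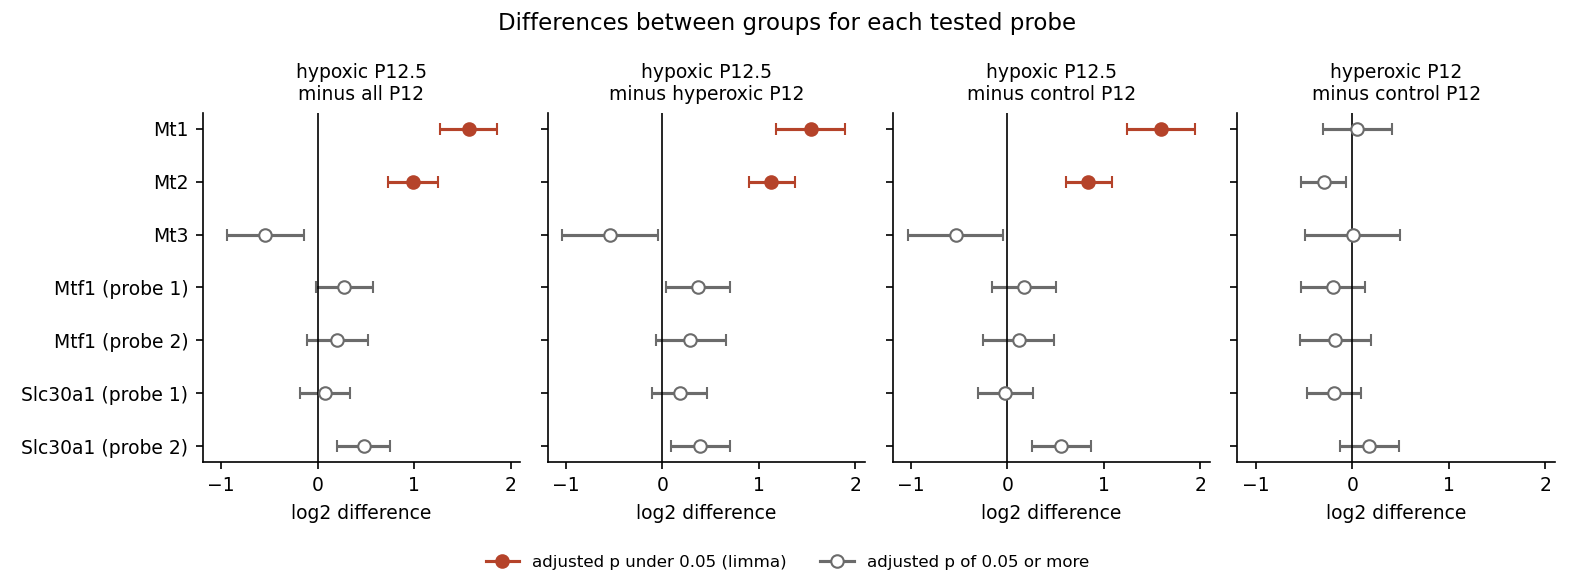
Log2 difference (horizontal axis) of the 7 tested member probes in the 4 comparisons, from hypoxic P12.5 minus all P12 on the left to hyperoxic P12 minus control P12 on the right; bars are 95% intervals from limma and filled points have an adjusted p under 0.05. Filled points are those of Mt1 and Mt2 in the 3 comparisons with hypoxic P12.5.

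The regulator Mtf1 gave no call with either tested probe. Its most intense probe, designed on another cDNA record than the remaining pair, read 6.89, 6.48 and 6.59 on the hypoxic arrays, against 6.41, 6.09 and 6.34 on the hyperoxic arrays and 6.40, 6.67 and 6.37 on the controls (normalized log2 intensity). The hypoxic arrays lay above the hyperoxic ones by 0.07 or more, as did 13.2% of all tested probes, and overlapped the controls. The difference from all P12 was 0.27 ± 0.13 (95% interval -0.02 to 0.57, limma adjusted p = 0.283). It was 0.37 ± 0.15 from hyperoxic P12 (adjusted p = 0.22) and 0.17 ± 0.15 from control P12 (adjusted p = 0.57). The next probe, detected on 7 arrays, differed from all P12 by 0.20 ± 0.14 (adjusted p = 0.46), with overlapping groups. The third was detected on no array, and its values of 4.60 to 4.85 give only a bound. The upper bound of the interval for the most intense probe against all P12 was 1.48-fold.

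For the zinc exporter Slc30a1 the 2 probes, both detected on all 9 arrays, gave different values. The more intense probe read 9.73, 9.58 and 9.90 on the hypoxic arrays, against 9.42, 9.75 and 9.51 on the hyperoxic arrays and 9.81, 9.73 and 9.70 on the controls, so that all 3 groups overlapped. Its difference from all P12 was 0.08 ± 0.12 (95% interval -0.18 to 0.34, limma adjusted p = 0.749). The value depended on scaling, at 0.39 ± 0.23 with median centring, above that interval, and 0.33 ± 0.28 under the deposited ratios, beside all-probe medians of 0.24 and 0.13. Neither passed (adjusted p = 0.332 and 0.683). The less intense probe read 6.64, 6.58 and 6.70 on the hypoxic arrays, against 6.05, 6.54 and 6.15 on the hyperoxic arrays and 6.12, 6.13 and 5.98 on the controls. At this probe all 3 hypoxic arrays exceeded all P12 arrays, by 0.04 at the nearest pair, as did 6.91% of all tested probes. Its difference from all P12 was 0.48 ± 0.12 (fold 1.39, 95% interval 1.15 to 1.68), just outside the threshold (limma adjusted p = 0.0625). Without hyperoxic 2, the P12 array nearest to the hypoxic ones, it was 0.55 and passed (adjusted p = 0.0123). It also passed without hyperoxic 1 (0.47, adjusted p = 0.0426). Without hyperoxic 1, 4.12% of all tested probes were called as higher, against 1.79% with all arrays. Against control P12 the difference at this probe was 0.56 ± 0.14 (adjusted p = 0.0701), with 0.45 between the nearest arrays. In that comparison 17.6% of all tested probes lay wholly higher. Against hyperoxic P12 the difference was 0.39 ± 0.14 (adjusted p = 0.17). Against control P12 it passed without hyperoxic 1 (0.58, adjusted p = 0.00959) and without hyperoxic 2 (0.56, adjusted p = 0.0256). Without hyperoxic 1, 8.50% of all tested probes were called as higher than the control, against 1.29% with all arrays. Which probe follows the transcript more closely was not tested.

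Between the P12 groups as labelled none of the 7 member probes passed, but these labels are in doubt. The contrast gives the state at the end of the oxygen phase only if they are right. Over all tested probes 0% were called by limma, although 1873 had an unadjusted p under 0.05. Mt1 differed by 0.05 ± 0.16 (hyperoxic minus control, 95% interval -0.30 to 0.41, limma adjusted p = 0.917) and Mt3 by 0.01 ± 0.22 (95% interval -0.49 to 0.50, adjusted p = 0.994). Mt2 was the only member probe without overlap, at 5.74 to 5.80 on the hyperoxic arrays and 6.05 to 6.07 on the controls, a pattern that 9.80% of all tested probes had in that direction. Its difference of -0.29 ± 0.10 (unadjusted p = 0.0195) did not pass (adjusted p = 0.489). Mtf1 differed by -0.20 ± 0.15 (adjusted p = 0.648) and Slc30a1 by -0.19 ± 0.13 at the more intense probe (adjusted p = 0.621) and 0.17 ± 0.14 at the other (adjusted p = 0.666).

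The order of the P12 arrays changed when they were grouped by the deposited ratios in place of the labels. For Mt1 the 3 arrays outside the ratio baseline (control 2, control 3 and hyperoxic 1) read 11.22 to 11.50, against 10.92 to 11.14 on the baseline arrays (control 1, hyperoxic 2 and hyperoxic 3). Mt3 was likewise without overlap, at 8.10 to 8.57 outside the baseline and 7.86 to 8.07 within it. This order of normalized values did not hold in the deposited ratios. There hyperoxic 1 was the lowest P12 array, at 0.684 in Mt1 and 0.714 in Mt3. The baseline arrays had ratios of 0.899 to 1.09 in Mt1 and 0.868 to 1.004 in Mt3. Of all tested probes 13.0% lay wholly higher outside the baseline, 1.59% were called as higher and 2.41% as lower. Neither difference passed, at 0.32 ± 0.12 for Mt1 (limma adjusted p = 0.139) and 0.46 ± 0.16 for Mt3 (adjusted p = 0.125), and Mt2 overlapped (0.09 ± 0.13, adjusted p = 0.707). Against the arrays outside the baseline, hypoxic P12.5 differed by 1.40 ± 0.12 in Mt1 (adjusted p = 0.000424) and 0.94 ± 0.13 in Mt2 (adjusted p = 0.00734), a comparison that called 4.25% of all tested probes as higher. Against the baseline arrays the rise was 1.73 ± 0.12 in Mt1 (adjusted p = 5.23e-05) and 1.03 ± 0.13 in Mt2 (adjusted p = 0.00146), with 4.40% of all tested probes called as higher. Mt3 fell by 0.77 on the log2 scale relative to the arrays outside the baseline (SE 0.16, adjusted p = 0.0274), where 2.02% of all tested probes were called as lower, and its difference from the baseline arrays was -0.31 ± 0.16 (adjusted p = 0.286). Outside the baseline 6 of 7 tested endothelial markers were called as lower than in it, and their part in the order of Mt1 and Mt3 was not tested.

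Likeness of profile was measured as the root mean square difference over the 9 arrays after each probe was centred on its own mean, over tested probes with 1 symbol. The 5 genes nearest to Mt1 were Muc5ac, a secreted mucin (0.14 log2 units), Cdkn1a, which encodes the cell cycle inhibitor p21 (0.17), the class I histocompatibility genes H2-Q8 and H2-T23 (0.17 each) and Pdlim1, an adaptor of the actin cytoskeleton (0.18). The SD of Mt1 itself over these arrays was 0.80. Against all P12 arrays the 5 neighbours differed by 1.45 to 1.75. Nearest to Mt2 were Arhgap31, a regulator of small GTPases, Kdelr3, a retrieval receptor for proteins of the endoplasmic reticulum, the autophagy gene Atg9b and Egln1, the oxygen-sensing prolyl hydroxylase PHD2 (0.12 each), followed by Plat, tissue plasminogen activator (0.13). Mt2 had an SD of 0.51, and these neighbours differed by 0.83 to 1.01 from all P12. All of these profiles are high on the 3 hypoxic arrays, and a ranking over 9 arrays that share this split is a description only.

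Mt1 and Mt2 were 0.36 apart by the same measure, and Mt2 ranked 41st among the 15545 other named probes in nearness to Mt1. Mt3 was 1.0 from Mt1 and 0.78 from Mt2 and ranked 14981st and 15194th, near the far end of the order. The genes nearest to Mt3 were Sema4f, a transmembrane semaphorin, and Sobp (0.14 each), the lipid transporter Abca7 and Lin37, a subunit of the DREAM complex (0.15 each), and Radil (0.16). Mtf1 was nearest to Lrfn4 and Tle2 (0.09 each) and to Tsc1, Fbxl19 and 2700062C07Rik (0.10 each). Slc30a1 was nearest to Zdhhc6 (0.04), Cdk19 (0.05), Klf7, Cops5 and Sesn3 (0.06 each), all flat profiles, since the SD of Slc30a1 was 0.15.

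**Figure D3:**
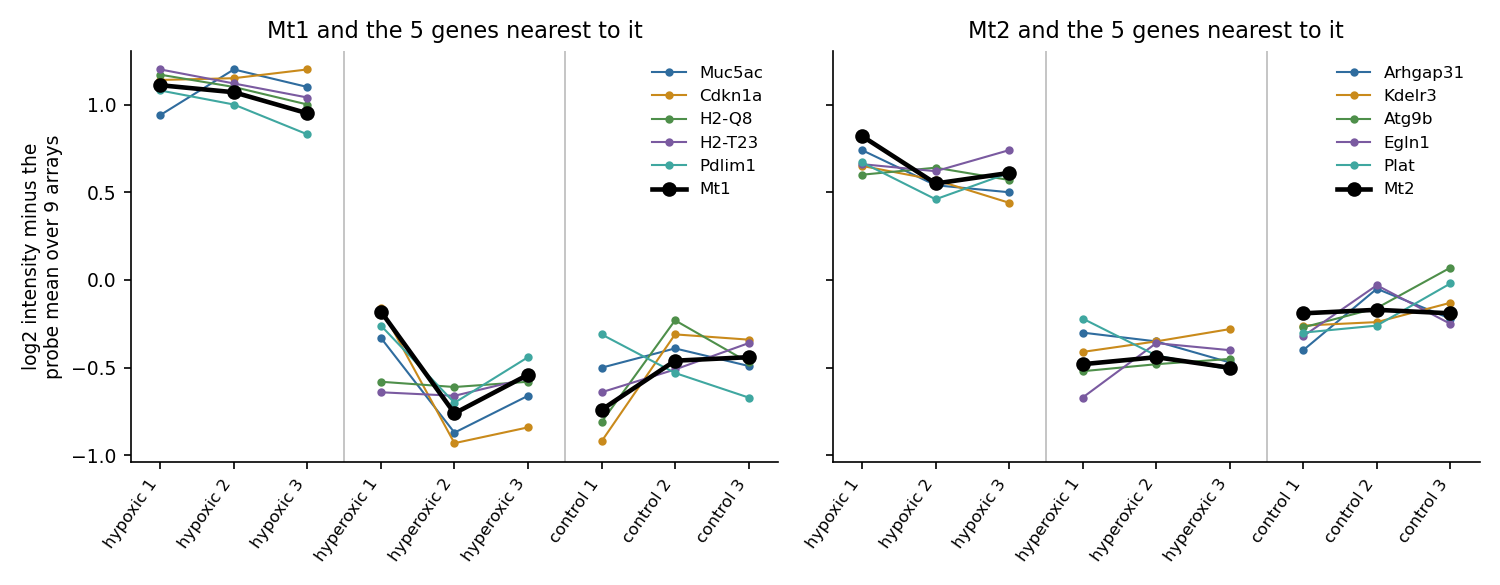
Log2 intensity minus each probe's mean over 9 arrays (vertical axis) for Mt1 (left) and Mt2 (right) in black and the 5 genes nearest to each in colour, by array. The hypoxic arrays lie above the P12 arrays in every profile, as the choice by likeness makes them.

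Among other genes of zinc and copper handling, the importer gene Slc39a3 was lower and the copper carrier gene Cp higher in the hypoxic retinas than at P12. Together with glucocorticoid targets, 5 lists held 40 distinct tested genes, of which limma called 3 as higher (7.5%) and 1 as lower (2.5%) against all P12 arrays, where 1.79% and 1.45% of all tested probes were called. The counts were 2 and 1 against hyperoxic P12, 1 and 1 against control P12, and 0 and 0 for hyperoxic against control P12. Of 8 tested zinc exporters of the Slc30 family, Slc30a1 among them, none was called, and their median difference was 0.11, against 0.02 over all probes. The exporter of lowest p was Slc30a10, a manganese and zinc transporter, at 0.20 ± 0.11 (adjusted p = 0.35), followed by Slc30a6 (0.16 ± 0.15), Slc30a4 (0.15 ± 0.16) and Slc30a5 (-0.09 ± 0.11), with adjusted p-values of 0.578, 0.642 and 0.684. Slc30a2 and Slc30a8 were detected on no array. With the P12 arrays grouped by the ratio baseline, Slc30a3, which loads zinc into synaptic vesicles, was 0.66 higher outside the baseline than in it (limma adjusted p = 0.0278).

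Of 9 tested zinc importers of the Slc39 family, which bring zinc into the cytosol, 1 fell and 8 did not pass, with a median of -0.08. The one that fell was Slc39a3, which encodes the importer ZIP3. It read 7.91, 7.96 and 8.01 on the hypoxic arrays, against 8.65, 8.47 and 8.66 on the hyperoxic arrays and 8.71, 8.45 and 8.54 on the controls. All hypoxic arrays lay below all P12 arrays, as did 7.06% of all tested probes. The Slc39a3 difference was -0.62 ± 0.10 (limma adjusted p = 0.00891). The call ended under median centring (-0.31, adjusted p = 0.332) and under the deposited ratios (-0.30, adjusted p = 0.615), where the importers' median was 0.21 and 0.11, a change of sign that stays under the shift of all probes. Slc39a1 (0.30 ± 0.11, adjusted p = 0.149), the inflammation-responsive Slc39a14 (0.30 ± 0.12, adjusted p = 0.205) and Slc39a7, which releases zinc from the endoplasmic reticulum (0.25 ± 0.11, adjusted p = 0.218), had positive differences that did not pass.

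None of 5 tested genes reported as MTF-1 dependent in mouse outside the metallothioneins passed, Slc30a1 included. Their median was 0.08, but the list gives no direction of the dependence, so the median does not measure MTF-1 activity. Slc30a1 was counted by its more intense probe. Its less intense probe differed by 0.48 ± 0.12 and did not pass either (limma adjusted p = 0.0625). The stress-responsive Ndrg1 differed by 0.22 ± 0.10 (limma adjusted p = 0.229), the LIM-domain gene Csrp1 by 0.34 ± 0.19 (adjusted p = 0.332), the selenoprotein gene Selenow by -0.18 ± 0.09 (adjusted p = 0.309) and the zinc importer Slc39a10 by -0.16 ± 0.23 (adjusted p = 0.731). When P12 was grouped by the ratio baseline, Csrp1 was called as higher (0.59, adjusted p = 0.0431) and Slc39a10 as lower (-0.53, adjusted p = 0.0363) in P12.5 than on the baseline arrays. Slc39a10 was also lower on the P12 arrays outside the baseline than on those in it (-0.74, adjusted p = 0.0189). Gclc, of glutathione synthesis, and Hamp, the iron hormone hepcidin, were detected on no array. Of 11 tested copper genes 1 rose, Cp, which encodes the copper-carrying ferroxidase ceruloplasmin, and the median was 0.03. Cp read 9.10, 8.74 and 9.10 on the hypoxic arrays. It read 8.17, 8.30 and 8.24 on the hyperoxic arrays and 8.37, 8.57 and 8.55 on the controls. Its hypoxic arrays lay above all P12 arrays, as did 6.91% of all tested probes. Its difference was 0.61 ± 0.13 (adjusted p = 0.0327), and the call ended with median centring (0.91, adjusted p = 0.0676) and the deposited ratios (0.76, adjusted p = 0.343). By the labels Cp was called against hyperoxic P12 (0.74 ± 0.13, limma adjusted p = 0.0263) but not against control P12 (0.48 ± 0.13, adjusted p = 0.0857). The copper chaperone Cox17 differed by -0.34 ± 0.10 (adjusted p = 0.0874), Slc31a2 by 0.25 ± 0.16 and Atox1 by -0.19 ± 0.15.

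Glucocorticoids are known inducers of Mt1 and Mt2, so targets of the glucocorticoid receptor were counted as well. Of 9 tested, 2 rose and 7 did not pass, where 1.79% of all tested probes were called as higher. Their median difference was 0.26, against 0.02 over all probes. Cdkn1a, which other pathways such as p53 also induce, differed by 1.75 ± 0.18 (limma adjusted p = 0.00131), with 8.91 to 8.97 on the hypoxic arrays, 6.84 to 7.61 on the hyperoxic arrays and 6.84 to 7.45 on the controls. The phosphatase gene Dusp1, also an immediate early gene, differed by 0.50 ± 0.11 (adjusted p = 0.0424), a call that ended with the deposited ratios (0.70, adjusted p = 0.189). Fkbp5, the receptor's co-chaperone, had 0.90 ± 0.22 (adjusted p = 0.0547). On hyperoxic 1 Fkbp5 read 8.14, close to the 8.27 to 8.61 of the hypoxic arrays. It passed without that array (1.01, adjusted p = 0.0109) and, with all arrays, under median centring (1.19, adjusted p = 0.0108). Each of these settings gave 3 of 9, where 4.12% and 1.78% of all tested probes were called as higher. Fkbp5 and Cdkn1a were also higher on the P12 arrays outside the ratio baseline than on those in it (0.73, adjusted p = 0.0208, and 0.63, adjusted p = 0.00867). Nfkbia, an inhibitor of NF-kB, had 0.68 ± 0.20 (adjusted p = 0.0898), and Tsc22d3 and Pdk4 were detected on no array. The part of glucocorticoids in the rise of Mt1 and Mt2 was not tested.

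**Figure D4:**
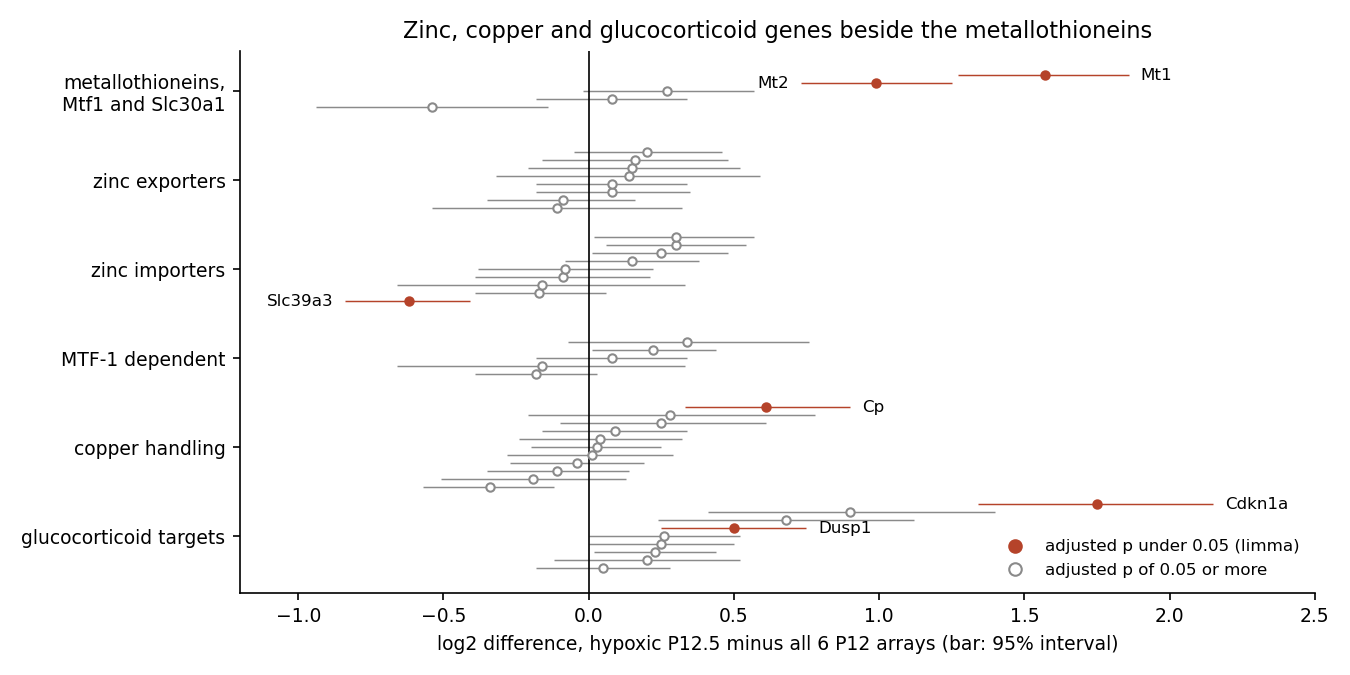
Log2 difference of hypoxic P12.5 minus all 6 P12 arrays (horizontal axis, bars are 95% intervals from limma) for the main probe of each member and for every tested gene of 5 lists; filled points have an adjusted p under 0.05 and are named. Mt1, Mt2, Cp, Cdkn1a and Dusp1 lie to the right of 0, and Slc39a3 to the left.

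In whole retina, fewer cells of a type and less RNA per cell cannot be told apart, so markers of the cell types that could carry metallothioneins are given beside these results. Muller glia express Mt1 and Mt2, and their 10 tested markers had a median difference of -0.19 in hypoxic P12.5 against all P12. The water channel gene Aqp4 (-0.62 ± 0.11), Clu (-0.46 ± 0.10) and the transporter gene Abca8a (-0.98 ± 0.23) were called as lower. Glul (0.61 ± 0.50), Car14 (0.36 ± 0.15), Vim (0.29 ± 0.10) and Dkk3 (0.05 ± 0.12) had positive differences that did not pass. Car14 passed without hyperoxic 1 (0.44, limma adjusted p = 0.0481), where 4.12% of all tested probes were called as higher. The other 3 differed by -0.33 to -0.17. The summed normalized intensity of all 10 Muller glia markers was 16850 to 17280 on the hypoxic arrays and 16520 to 18860 on the P12 arrays. Of 3 tested astrocyte markers Gfap was higher (0.58 ± 0.13, limma adjusted p = 0.0436), while Cd44 (0.25 ± 0.12) and Aldh1l1 (-0.34 ± 0.26) did not pass. The 5 markers summed to 318.8 to 325.6 at P12.5 and 260.7 to 306.3 at P12, and Pax2 and S100b were detected on no array. Gfap is also raised in stressed Muller glia. The part of these markers in the rise of Mt1 and Mt2 was not tested.

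Lens genes varied between arrays. The 10 with a probe had a sum of 1627 to 10720 on the hypoxic arrays and 427.9 to 4943 on the P12 arrays. None of 9 tested was called (median difference 1.76), and 6 of 9 were called as higher without hyperoxic 1. That setting called 4.12% of all tested probes as higher and 4.45% as lower, against 1.79% and 1.45% with all arrays. Of 5 tested pigment epithelium markers 3 were called as lower (Rdh5, Pmel and Dct). The sum over the 7 with a probe was 2396 to 3261 at P12.5 and 3236 to 5110 at P12. Among 7 tested endothelial markers 1 was called as lower (Slco1c1). The sum over the 9 with a probe was 1481 to 1575 at P12.5 and 1435 to 2902 at P12. Among 5 tested pericyte and smooth muscle markers 1 was called as lower (Vtn), and Tagln was detected on no array. The sum over the 6 with a probe was 1033 to 1171 at P12.5 and 1369 to 2807 at P12. Of 6 microglial markers none was called, with 488.6 to 560.8 at P12.5 and 444.3 to 702.6 at P12. Rod and cone markers had lower sums at P12.5, with 60870 to 64560 at P12.5 and 67750 to 75520 at P12 for rods, and 6215 to 6371 at P12.5 and 8106 to 11230 at P12 for cones. They were called as lower at 1 of 4 and 2 of 5 tested genes. With median centring or the deposited ratios none of the Muller glia, astrocyte, endothelial, pericyte, pigment epithelium and rod markers was called, and the Muller glia and rod medians were above 0 and below the shift of all probes. Erythroid markers summed to 490.3 to 1710 at P12.5 and 526.2 to 1978 at P12. None of these sums was entered in the fit of the metallothioneins, and their part in it was not tested.

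Mt4, the metallothionein of stratified epithelium and no member of the set, was detected on 1 array, hypoxic 1, and was not tested. Its raw intensity was 82.5 to 89.5 on the hypoxic arrays, 76.7 to 152.6 on the hyperoxic arrays and 70.3 to 71.9 on the controls, where the highest value belonged to hyperoxic 1 with its high median.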

How the data were processed

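RNA of 9 retinal samples had been hybridized to Illumina arrays as biotin-labelled cRNA, per the labels' protocols. The deposited raw table gives a probe intensity on a linear scale and a detection p-value per array, per the file headers, and was treated as not normalized. Each p-value column was used with the array whose intensities it follows (81 pairs tested). The authors' deposited value table gives each probe a ratio on each array. It was used as an alternative, and how it was scaled is not stated in the labels.

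Of 46640 probes, 27 at 0 on all arrays were left out. Platform annotation gave 32781 probes 1 symbol, 55 several and 13777 none, and symbols were updated through RefSeq gene identifiers. Intensities were background-corrected and quantile-normalized on the log2 scale with neqc (offset 16) in limma 3.58.1 under R 4.3.3. All adjusted p-values come from limma (lmFit and eBayes, two-sided, Benjamini-Hochberg over 19620 tested probes at 0.05), with 1 mean per labelled group, or 2 groups for P12.5 against all P12. The number of arrays limits the precision. The fit was tested on simulated data. For P12.5 against hyperoxic, control and all P12, 10 of 97, 11 of 96 and 16 of 138 calls there were wrong. In the same order the fit recovered 7.69%, 9.23% and 33.8% of 1.5-fold changes and 78.5%, 76.9% and 86.2% of 3-fold changes. Most simulated 1.5-fold changes were missed, so a probe that did not pass may still differ by that much. No probe was called where no change was simulated.

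The members, lists and tests were chosen with earlier results of these data known. All members are named whatever their values, with every probe. The most intense tested probe stands for a gene, and from each list up to 4 genes of lowest p against all P12 are named. Marker lists are described by counts and sums, and genes named from them beyond this rule were chosen after their values were seen. Alternatives changed the scaling, background correction, probe filter, p-value columns, array weights, replicate block, sex term and P12 grouping, and left out each array. Promoter sequences are from RefSeq (GRCm38.p6). Protein sequences were not used here.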

Additional observations from a re-analysis of the deposited data

Results flagged for a closer look

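Of the 7 tested member probes, checked over the 6 P12 arrays, 1 had an array far from the others. At the less intense Slc30a1 probe hyperoxic 2 read 6.54, while the other P12 arrays read 5.98 to 6.15. Its gap to the nearest array was 0.695 of the whole range, above the critical value of Dixon's test for 6 samples. Chance marks about 1 in 20 groups. The more intense Slc30a1 probe read 9.75 on the same array, within the 9.42 to 9.81 of the P12 arrays.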

How the results depend on the processing

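Mt1 kept its direction and its call in the 3 comparisons with P12.5 under every alternative, with limma adjusted p-values up to 0.0325. Mt2 kept its direction there, and had no value where only probes detected on all 9 arrays were kept. The comparison with all P12 could not change with the P12 grouping, as the same 19620 probes, chosen by the labels, were kept. Calls over all probes, in the order P12.5 against hyperoxic, control and all P12 (333, 371 and 636), were 21, 14 and 33 with the deposited ratios, 185, 42 and 355 with median centring, 135, 18 and 320 with a sex term and 5289, 4061 and 4001 with array weights. They were 609 against the control without background correction, 190 against hyperoxic P12 without a filter, and 730 and 993 against control and all P12 with detection on all 9 arrays. Leaving out 1 array gave 48 to 1943, 18 to 2996 and 80 to 1728, and 0 to 501 for hyperoxic against control. That comparison gave 2680 with array weights. With P12 grouped by the ratio baseline, the arrays outside it against those in it gave 783. P12.5 gave 1229 against the arrays outside the baseline and 1774 against those in it.

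Same-numbered arrays did not deviate together (correlations of -0.34 to 0.11), so the numbers were not taken as pairs. With the replicate block calls were 127, 42 and 161, and Mt2 against the control was 0.84 with adjusted p = 0.05, not called. Other Mt2 values against the control that were not called were 1.07 with median centring, 0.62 with the ratios and 0.81 with the sex term, and 0.75 to 0.89 spans the single arrays left out. With the ratios Mt2 was 0.81 against hyperoxic P12 and 0.72 against all P12, neither called. Mt3 passed at -0.56 and -0.50 with array weights, against control and all P12, and at -0.77 against the P12 arrays outside the baseline. For Slc30a1 against the control (-0.02) the sign turned with median centring (0.24) and the ratios (0.11). The difference spanned -0.10 to 0.06 with 1 array left out. With the P12 grouping Slc30a1 was 0.04 against the baseline arrays. Its less intense probe passed against all P12 at 0.48 with detection on all 9 arrays and at 0.51 with weights, and spanned 0.44 to 0.55 with 1 array left out. Against the control that probe passed at 0.56 in both settings, and against hyperoxic P12 at 0.43 with weights. With the P12 grouping it passed at 0.59 against the P12 arrays outside the baseline.

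Between hyperoxic and control P12, Mt1 (0.05) was -0.02, -0.23 and -0.06 and Mt3 (0.01) was -0.09, -0.23 and -0.18 with median centring, the ratios and array weights. With 1 array left out Mt1 spanned -0.10 to 0.19 and Mt3 -0.19 to 0.20. Mt2 passed at -0.31 with weights. With the P12 grouping the difference is that of the arrays outside the baseline minus those in it. It was 0.09 for Mt2, 0.21 for Mtf1, 0.04 for the second Mtf1 probe and -0.22 for the less intense Slc30a1 probe. Between hyperoxic and control P12 as labelled, the second Mtf1 probe was 0.07 with weights. The causes of these changes were not tested. A probe under the detection limit, such as Mt2 on hyperoxic 1, carries little more than background.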
